A study of Mus musculus with 8 samples.

Results

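The 8 genes Acta2, Tagln, Cnn1, Myl9, Postn, Lum, Tdo2 and Rgs5, which mark smooth muscle and embryonic mesenchyme, were followed by name in single-cell RNA-seq of mouse chimaeras. They comprise 4 genes of the contractile apparatus (Acta2, Tagln, Cnn1 and Myl9), 2 genes of the extracellular matrix (Postn and Lum), the metabolic enzyme gene Tdo2 and the signalling regulator gene Rgs5. All 8 were found once each among the 55422 features of the count tables. The chimaeras were made by injecting Tet-TKO embryonic stem cells, which lack working Tet1, Tet2 and Tet3 genes, into wild-type C57BL/6J blastocysts, so that mutant and wild-type cells developed in the same embryos. Tet-TKO cells carried an H2B-tdTomato reporter driven by the CAG promoter and came from 1 stem cell line of mixed C57BL/6J-129Sv background, and the WT host cells carried neither the mutations nor the reporter. Embryos were pooled, and live single cells were sorted into tdTomato+ (Tet-TKO) and tdTomato- (WT host) fractions. The E8.5 stage had 4 Tet-TKO libraries and 2 from the WT host, and E7.5 had 1 of each genotype, so that E7.5 values have no replicate check. Genotype, strain background and stem cell origin differ together between the groups and cannot be told apart. Pools of embryos were sorted into both fractions, and the study speaks of matching host samples, but neither its methods nor the labels say how many pools there were or which libraries share one. Hence the p-values measure the spread between these libraries, which may be technical.

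As background, smooth muscle cells contract with a specialised set of actin-associated proteins that is switched on by serum response factor (SRF) and its co-activators, which bind a short DNA element called the CArG box. Before mature smooth muscle exists, the same genes are active in early embryonic mesenchyme and, for a time, in the first heart muscle cells. TET enzymes oxidise methylated cytosine in DNA and so take part in its removal. Acta2 encodes smooth muscle alpha-actin, Tagln encodes transgelin (SM22), an actin-binding protein, Cnn1 encodes calponin, which binds actin and restrains actomyosin, and Myl9 encodes a regulatory light chain of myosin II. Postn encodes periostin, a secreted matricellular protein. Lum encodes lumican, a small leucine-rich proteoglycan of collagen fibrils. Tdo2 encodes tryptophan dioxygenase, which starts tryptophan breakdown, and Rgs5 encodes a regulator of G protein signalling known from pericytes.

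In mm10, the build of the count tables, the contractile genes lie at chr19:34241090-34255590 on the minus strand (Acta2), chr9:45929619-45936058 on the minus strand (Tagln), chr9:22099216-22109630 on the plus strand (Cnn1) and chr2:156775420-156781658 on the plus strand (Myl9). The others lie at chr3:54361109-54391037 on the plus strand (Postn), chr10:97565128-97572703 on the plus strand (Lum), chr3:81957090-81976202 on the minus strand (Tdo2) and chr1:169655501-169695813 on the plus strand (Rgs5). All 8 are annotated as protein-coding. RefSeq promoter windows of GRCm38.p6, from 250 bases before to 50 bases after a start site, were at hand for 6 of the 8 members, without Tagln and Lum. The stretches before the RefSeq start site are shown for Acta2, Cnn1 and Myl9. These contractile genes differ in their CArG boxes, and their genotype contrasts are described further on. Capitals mark a CArG box, either a full one or one with 1 G or C in its core of A and T. The stretches are chr19:34255374-34255623 (minus strand, Acta2), chr9:22099003-22099252 (plus strand, Cnn1) and chr2:156775214-156775463 (plus strand, Myl9). For each of these genes the RefSeq start site lies inside the gene span given above, so the stretch overlaps that span. Most of the Acta2 stretch lies inside it.
Acta2: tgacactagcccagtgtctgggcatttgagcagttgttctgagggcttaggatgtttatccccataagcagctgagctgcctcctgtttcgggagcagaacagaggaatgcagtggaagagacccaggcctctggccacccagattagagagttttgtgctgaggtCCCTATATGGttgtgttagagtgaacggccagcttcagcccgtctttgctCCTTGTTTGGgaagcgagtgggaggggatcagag
Cnn1: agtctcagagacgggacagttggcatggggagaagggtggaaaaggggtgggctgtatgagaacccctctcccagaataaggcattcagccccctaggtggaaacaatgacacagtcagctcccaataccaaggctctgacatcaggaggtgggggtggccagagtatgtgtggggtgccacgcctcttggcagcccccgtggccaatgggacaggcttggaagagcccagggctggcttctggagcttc
Myl9: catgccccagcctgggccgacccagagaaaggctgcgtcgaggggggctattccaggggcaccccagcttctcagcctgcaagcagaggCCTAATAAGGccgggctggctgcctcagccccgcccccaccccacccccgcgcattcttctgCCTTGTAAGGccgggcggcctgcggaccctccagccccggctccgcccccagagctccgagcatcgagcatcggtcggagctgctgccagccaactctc
On both strands, the full CArG box was found in 1.63% of all 32851 promoter windows and the box with 1 G or C in its core in 8.5%. Myl9 held a full box at position -161 from the RefSeq start site and a box with 1 substitution at -99. Acta2 held 2 boxes with 1 substitution, at -84 and -34 from its RefSeq start site. Both Acta2 boxes lie inside the gene span given above, and both Myl9 boxes lie before theirs. The windows of Cnn1, Rgs5, Postn and Tdo2 held neither form, which says only that these letters do not occur there. The Myl9 window held 20 CpG dinucleotides, against 6 each in those of Acta2, Cnn1 and Rgs5, 4 in that of Tdo2 and 4 and 5 in the 2 windows of Postn, and the median of all windows was 7. These matches are a description of the sequence, and no methylation was measured here.

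After filtering, 37190 cells were kept at E8.5 and 12652 at E7.5, with 65601218 to 136982886 UMIs (unique molecular identifiers, each standing for 1 captured RNA molecule) per library. Clusters were built without the 8 members and without the other listed genes, and a cluster received a name only from preset marker genes, as in "mesenchyme-like". This gave 26 named classes among 41 at E8.5 and 16 among 27 at E7.5. The reporter matched the sort, with 71.5 to 145 tdTomato CPM (counts scaled to a common total per sum) in the Tet-TKO libraries and at most 0.938 CPM in the WT host libraries. The 3 targeted genes stayed detected in the Tet-TKO libraries, at 9.93 to 20.9 CPM for Tet1, 5.55 to 10.5 CPM for Tet2 and 22.5 to 37.5 CPM for Tet3, against 20.4 and 22.6, 4.63 and 4.67, and 23.1 and 23.2 CPM in the WT host. Counts of 3′ ends do not read the mutated sites, so these levels check nothing and the reporter is the check of the sort. Tet-TKO libraries 3 and 4 stood apart from libraries 1 and 2: their kept cells had median depths of 40400.5 and 68931 UMIs, against 12178 to 18774 UMIs in the other E8.5 libraries. Libraries 1 and 2 were closer to each other (15.5 by a chi-square of their gene counts, divided by its degrees of freedom) than to library 3 (189 and 176), and libraries 3 and 4 were again close (17.7). The WT host libraries stood at 140.5 from each other. All such pairs differed by more than counting noise, which does not show that they are separate biological replicates. Each library was counted as 1 replicate, as the labels number them, and fits of each pair of Tet-TKO libraries alone, added after the data were seen, are given beside the called members and some others.

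Across the E8.5 classes, the contractile genes were highest in the cardiomyocyte-like and mesenchyme-like cells, the matrix genes and Tdo2 in the mesenchyme-like cells and Rgs5 in the allantois-like cells. The levels are sums of counts per class and library, given as CPM, and are not comparable between genes or tested between classes. In WT host cells, Acta2 was 3485 CPM ± 34.6 (SD, n = 2) in the cardiomyocyte-like and 2113 ± 239 in the mesenchyme-like class. Among the named classes, lateral plate mesoderm-like cells followed at 594 ± 115 CPM and allantois-like cells at 306 ± 75.1 CPM, and no neighbours in this order overlapped. An unnamed cluster of 29 cells, numbered 57, stood between the mesenchyme-like and lateral plate mesoderm-like cells with 990 and 992 CPM. Its leading genes included Prss35, Tac2 and Ccn4 but also the erythroid genes Car1 and Hbb-bh0, 8 erythroid markers were raised in it, and its cells held a median of 2.10 times the median UMI count of their library. Tagln had the reverse order at the top in WT host cells, with 999 CPM ± 155 in the mesenchyme-like and 760 ± 119 in the cardiomyocyte-like class (SD, n = 2). In Tet-TKO cells Tagln was 284 CPM ± 39.3 in the mesenchyme-like and 828 ± 551 in the cardiomyocyte-like class (SD, n = 4), and the ranges of these classes overlapped. Cnn1 was highest in cardiomyocyte-like cells, at 159 CPM ± 11.3 in WT host and 76.7 ± 13.6 in Tet-TKO libraries, while the class next in order stayed at a mean of 9.47 and 4.81 CPM. Myl9 was highest in cardiomyocyte-like cells in both genotypes (472 CPM ± 45.6 and 512 ± 207), with mesenchyme-like cells next.

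The matrix genes gave a narrower pattern. In the WT host, Postn reached 251 CPM ± 105 and Lum 294 ± 127 in mesenchyme-like cells (SD, n = 2), and this class held 79.0 to 89.0% of all Postn UMIs and 66.4 to 75.8% of all Lum UMIs of each E8.5 library. It also held 33.4 to 71.2% of the Tdo2 UMIs. Rgs5 was highest in allantois-like cells in both genotypes, at 224 CPM ± 13.8 in WT host and 180 ± 13.6 in Tet-TKO libraries. The class next in order was mesenchyme-like in the WT host (154 CPM ± 40.6) and cardiomyocyte-like in Tet-TKO (154 ± 53.5, overlapping with the allantois-like range). The label of the set held in part, as Acta2, Cnn1 and Myl9 were highest in cardiomyocyte-like cells. Some later smooth muscle markers, named after their values were seen, were low in mesenchyme-like cells. Over all 6 libraries Myh11, the smooth muscle myosin heavy chain gene, was at most 0.376 CPM, Lmod1 2.24 to 5.65 CPM and Smtn 11.9 to 14.1 CPM. Actg2, the gamma smooth muscle actin gene, measured 6.71 to 13.9 CPM in Tet-TKO and 27.7 and 35.1 CPM in WT host libraries of this class. Des was also looked at and its level is not given here, so these markers do not stand for all smooth muscle genes. Myocd, the myocardin gene, was at most 1.14 CPM in mesenchyme-like cells and 57.8 to 109 CPM in cardiomyocyte-like cells.

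**Figure D1:**
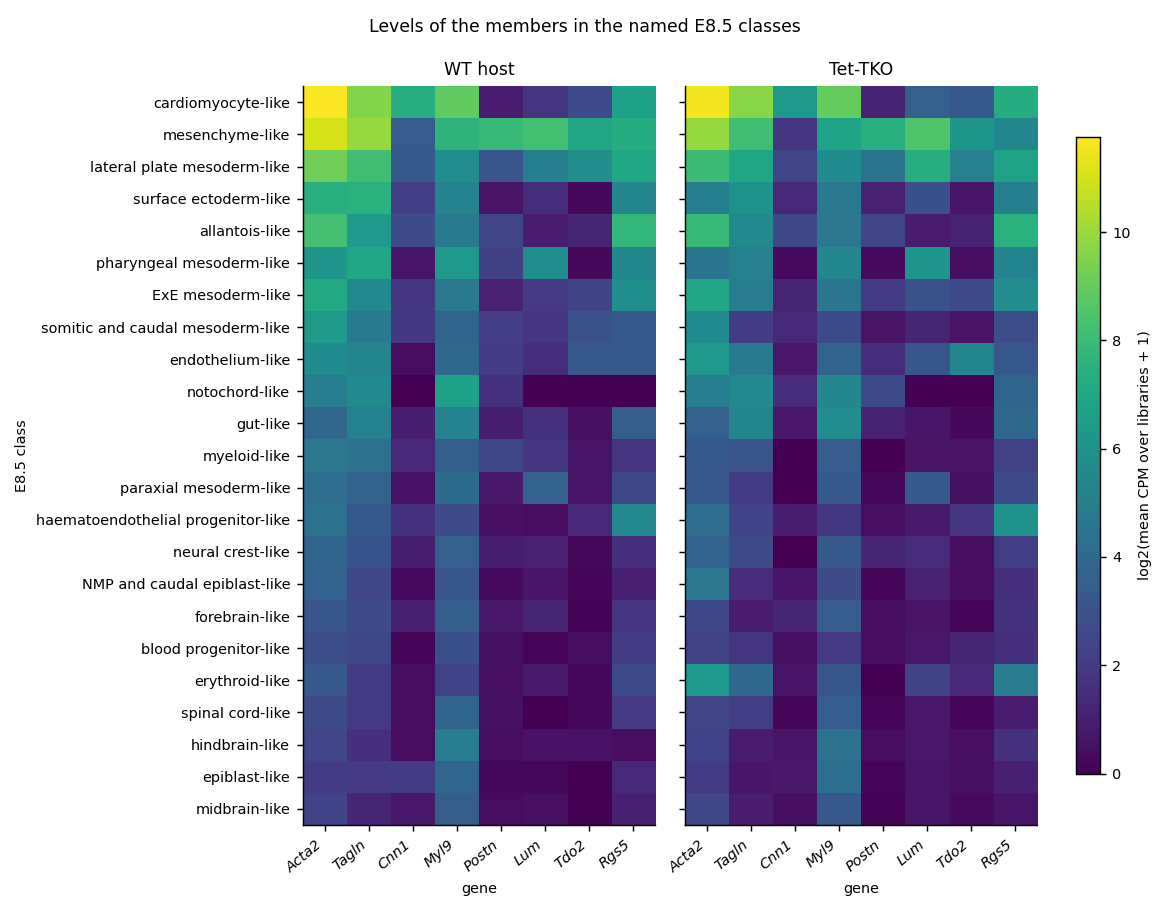
Level of each member in the E8.5 cell classes, drawn as a heat map of log2(mean CPM over libraries + 1), with 1 row per class, 1 column per gene and a panel each for WT host and Tet-TKO. Contractile genes peak in cardiomyocyte-like and mesenchyme-like cells, Postn, Lum and Tdo2 in mesenchyme-like cells and Rgs5 in allantois-like cells.

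The genes most like each member in pattern were found over the 38 E8.5 classes of the WT host, by Pearson's r of log2(mean CPM + 1) among 12360 genes. These classes share libraries, so the values are descriptions. Acta2 was most like Tagln (r = 0.940), followed by Cryab (0.879) and Nexn (0.848). After Acta2, Tagln was most like Cryab (0.873) and Cnn2 (0.846). Cnn1 followed the muscle genes Hspb2 (0.863) and Ryr2 (0.806), with Ciao2b (0.828) between them, and Myl9 followed Tagln (0.801), Myl6 (0.757) and Dstn (0.750). Postn was most like Ccn4 (0.809), Prss35 (0.795) and Adamts2 (0.788), and Lum was most like Col3a1 (0.841), Olfml1 (0.810) and Snai2 (0.780). Tdo2 was also most like Ccn4 (0.881) and Adamts2 (0.875), with Colec11 next (0.836). Rgs5 was most like Twist2 (0.889) and Pgf (0.855), both highest in allantois-like cells, and Dok4 (0.875), highest in mesenchyme-like cells. Among the members themselves, r ran from 0.317 (Cnn1 and Postn) to 0.940.

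Tet-TKO and WT host cells were then compared within each class, using edgeR's quasi-likelihood test on the summed counts over all genes. A gene was called at a Benjamini-Hochberg adjusted p of at most 0.01 with an absolute log2 fold change of at least 1, and all fold changes are Tet-TKO relative to WT host. Over 34 classes, 143 pairs of member and class passed the filter on low counts. Of these, 5 were called lower in Tet-TKO cells and 0 higher, and over all 325702 pairs of gene and class 0.346% were called lower and 0.226% higher. The 5 were Acta2 and Tagln in mesenchyme-like cells, Acta2 in lateral plate mesoderm-like cells, Tagln in somitic and caudal mesoderm-like cells and Cnn1 in cardiomyocyte-like cells, all of them contractile genes. Acta2, Tagln, Myl9 and Cnn1 made up 32, 25, 28 and 7 of the 143 pairs. At an unadjusted p under 0.05 the counts were 33 lower and 16 higher, against 5.73% and 5.62% of all pairs. DESeq2 called 8 lower and 4 higher, against 0.574% and 0.504%. The fold changes were negative in 92 of the 143 pairs and in 48.6% of all pairs. Each of the 5 calls was lost when either WT host library was left out, which leaves 1 WT host library that is assumed to vary like the Tet-TKO libraries: without library 1, 0 pairs were called lower, and without library 2, 1 other pair was.

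In the mesenchyme-like class as a whole, the 4 contractile members measured less in all 4 Tet-TKO libraries than in either WT host library. The matrix genes overlapped between genotypes. Of the 8 members, Acta2 and Tagln were called lower, against 0.844% of the 11499 genes tested, and 0 were called higher, against 0.148%. From Tet-TKO libraries 1 to 4 the class held 499, 683, 132 and 52 cells, and from the WT host 227 and 297. Acta2 measured 812, 999.8, 941 and 1036 CPM over Tet-TKO libraries 1 to 4, against 1944 and 2282 CPM for the WT host. The highest Tet-TKO library was thus far below the lowest WT host library. The log2 fold change was -1.21 (SE 0.13, adjusted p = 0.00271). The adjusted p was 0.0227 without WT host library 1, 0.0749 without WT host library 2 and 0.0106 without Tet-TKO library 3. Tagln measured 265, 339.9, 280.1 and 251 CPM in Tet-TKO and 889 and 1108 CPM in WT host libraries. No library of one genotype came near the other, and the log2 fold change was -1.85 (SE 0.17, adjusted p = 0.00138), with an adjusted p of 0.0101 without WT host library 1 and 0.0512 without library 2. When Tet-TKO libraries 3 and 4 were left out, the log2 fold changes were -1.19 for Acta2 (adjusted p = 0.000163) and -1.69 for Tagln (4.38e-05). With libraries 1 and 2 left out they were -1.21 (1.46e-06) and -2.02 (9.97e-09). The Tet-TKO spread in these fits is that within 1 pair of close libraries, so their smaller adjusted p do not make the result firmer. When the Tet-TKO libraries were summed into pairs, 1 with 2 and 3 with 4, Acta2 had an adjusted p of 0.0111 and lost its call. Tagln had an adjusted p of 0.00215 there. Over all alternatives the log2 fold change ran from -2.25 to -0.63 for Acta2 and from -2.66 to -0.96 for Tagln.

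The other contractile members lay in the same direction without passing both thresholds. Cnn1 was scarce in this class, at 3.31, 2.94, 1.88 and 1.99 CPM in Tet-TKO and 7.83 and 11.1 CPM in WT host libraries. Its log2 fold change was -1.86 (SE 0.33, adjusted p = 0.0204). Myl9 measured 104, 139, 98.1 and 108 CPM in Tet-TKO and 171 and 225 CPM in WT host libraries, with a log2 fold change of -0.85 (SE 0.18, adjusted p = 0.0457). Both genes kept the genotypes apart. Rgs5 did so too: it measured 67.9, 42.3, 26.5 and 29.9 CPM in Tet-TKO and 182 and 125 CPM in WT host libraries. Its log2 fold change of -1.88 (SE 0.37, adjusted p = 0.0296) missed the adjusted p. In all, 5 of the 8 members had every Tet-TKO value under the lower WT host value, as had 13.3% of all genes in this class, and for none was the order the opposite.

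Postn, Lum and Tdo2 varied among the Tet-TKO libraries as much as between genotypes. Postn measured 51.8, 128, 225 and 287 CPM in Tet-TKO and 177 and 326 CPM in WT host libraries (log2 fold change -0.62, SE 0.51). Lum measured 206, 450.2, 416 and 409 CPM in Tet-TKO and 205 and 384 CPM in WT host libraries (0.28, SE 0.31). Tdo2 measured 129.6, 85.0, 41.1 and 40.1 CPM in Tet-TKO and 132 and 112 CPM in WT host libraries (-0.71, SE 0.46). Tet-TKO libraries 3 and 4 had the highest Postn and the lowest Tdo2 of the 4, and the adjusted p was at least 0.518 for all 3 genes. Fits of each pair alone, made after these values were seen, describe the split: Tdo2 was at -0.15 with libraries 1 and 2 and -1.70 with libraries 3 and 4, Postn was at -1.47 and -0.09, and Rgs5 at -1.44 and -2.57. On leaving out 1 library the log2 fold change of Postn ran from -0.97 to -0.16.

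**Figure D2:**
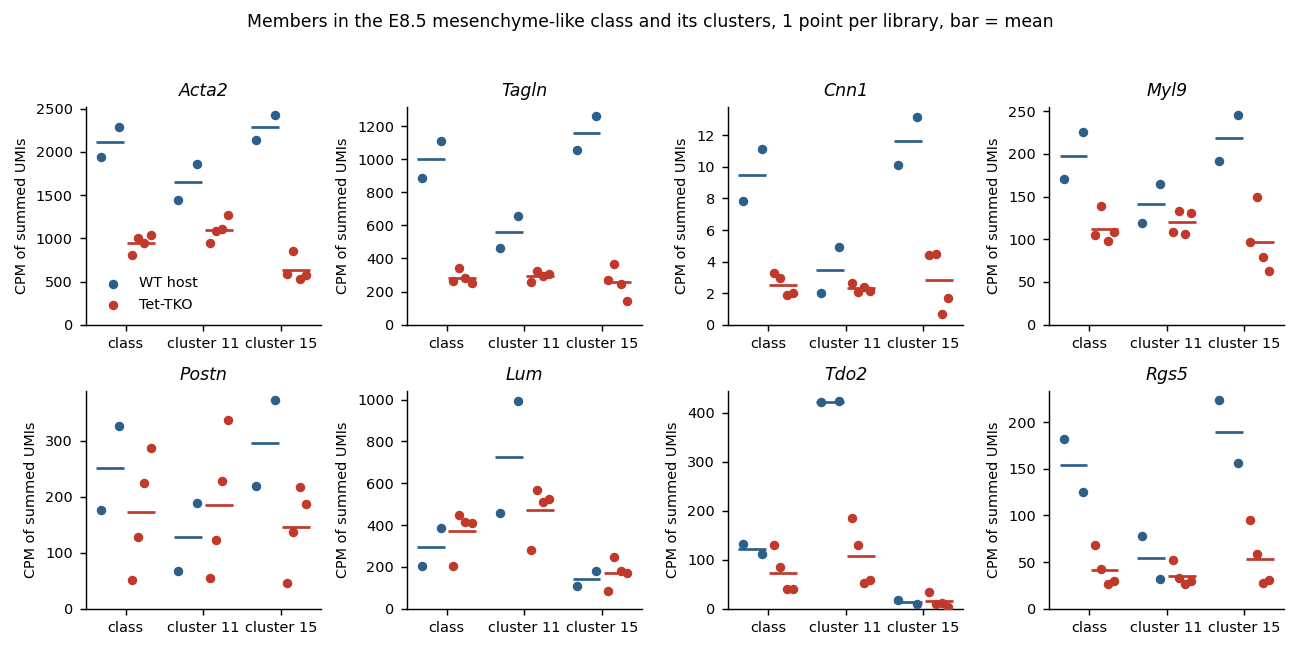
CPM of the 8 members at E8.5 in the whole mesenchyme-like class and in its clusters 11 and 15, 1 point per library (4 Tet-TKO, 2 WT host) and a bar for the mean of each genotype. In the whole class, Acta2, Tagln, Cnn1, Myl9 and Rgs5 have every Tet-TKO point below both WT host points, and Postn, Lum and Tdo2 overlap.

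The mesenchyme-like class joined 2 clusters that the genotypes filled differently. Cluster 11, led by Lum, Tdo2 and Col3a1, held 61.3 to 73.5% of the class in the Tet-TKO libraries and 26.9 to 27.3% in the WT host libraries. Cluster 15, led by Postn, Prss35 and Ccn4, held the rest. The clusters were therefore also fitted alone, an alternative added after the data were seen. Within cluster 15, Acta2 measured 587, 847, 535 and 573 CPM in Tet-TKO and 2142 and 2425 CPM in the WT host. It fell there by 1.87 on the log2 scale (SE 0.20, adjusted p = 0.000942). Tagln fell by 2.18 there (SE 0.29, adjusted p = 0.00253), from 1055 and 1259 CPM in the WT host to 272, 366, 246 and 142 CPM in Tet-TKO libraries. In this cluster 0.836% of all genes were called lower. Within cluster 11 neither was called, where 0.085% of all genes were. Acta2 measured 946 to 1267 CPM in Tet-TKO and 1438 and 1856 CPM in WT host libraries of cluster 11 (-0.63, SE 0.14, adjusted p = 0.143). Tagln measured 261 to 325 CPM and 465 and 656 CPM (-0.96, SE 0.16, adjusted p = 0.0513). Both genes thus lay below the WT host in every Tet-TKO library of either cluster, and the difference between the clusters was not tested. The other contractile members did not keep the genotypes apart in cluster 11. Myl9 measured 106 to 133 CPM in Tet-TKO and 119 and 164 CPM in WT host libraries there (-0.28, SE 0.18, adjusted p = 0.676), and 62.4 to 149 CPM against 191 and 246 CPM in cluster 15 (-1.15, SE 0.29, adjusted p = 0.0658). Cnn1 measured 2.05 to 2.64 CPM and 1.99 and 4.94 CPM in cluster 11, where it was too scarce to be tested.

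The matrix genes and Tdo2 also looked different inside the clusters. In cluster 11, Tdo2 measured 186, 130, 53.2 and 58.0 CPM in Tet-TKO libraries and 422 and 423 CPM in both WT host libraries. The genotypes did not overlap, yet the log2 fold change of -1.98 (SE 0.46) had an adjusted p of 0.143. In cluster 15, Tdo2 was 4.27 to 35.2 CPM in Tet-TKO and 8.89 and 17.9 CPM in WT host libraries. Lum had a log2 fold change of -0.66 in cluster 11 and 0.21 in cluster 15, and Postn of 0.46 and -1.10, none of which was called. Rgs5 measured 95.1, 58.6, 27.5 and 30.8 CPM in Tet-TKO and 223 and 156 CPM in WT host libraries of cluster 15 (-1.77, SE 0.40, adjusted p = 0.0453), and overlapped between genotypes in cluster 11.

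Markers of other cells moved with genotype in the mesenchyme-like class. The 7 mesenchyme markers that helped to name it summed to 3325 to 3792 CPM in Tet-TKO and 5549 and 5780 CPM in WT host libraries, with all 7 detected in each library. The 8 cardiomyocyte markers summed to 18.2 to 55.5 CPM in Tet-TKO and 219 and 223 CPM in WT host libraries, with 5 to 8 of them detected. Tnnt2 measured 7.96 to 31.5 CPM in Tet-TKO and 173 to 183 CPM in WT host libraries, where it made up most of the sum. Myh6, Myh7 and Ttn stayed at or under 1.23 CPM in every library. The rest of the WT host sum lay mainly in the other listed heart markers, Myl7, Myl4, Nkx2-5 and Actn2, whose single levels are not given here. The 8 erythroid markers summed to 6.54 to 54.7 CPM in Tet-TKO and 480 and 1153 CPM in WT host libraries. Decidual stroma markers summed to 3.99 to 11.1 and 33.9 to 48.9 CPM, almost all of it Wnt4, with Prl3c1 and Esr1 at 0. Allantois markers summed to 225 to 324 CPM in Tet-TKO and 154 and 224 CPM in WT host libraries. The part of these markers in the lower Acta2 and Tagln was not tested. With ambient counts subtracted, the log2 fold changes were -1.21 for Acta2 and -1.86 for Tagln (adjusted p 0.00287 and 0.00138). The ambient level was that of the listed genes in the neural classes of the same library. In forebrain-like cells, Acta2 had a mean of 4.86 CPM in Tet-TKO and 7.90 CPM in WT host libraries, and Tagln 0.89 and 5.37 CPM. So little was subtracted that the fold changes could hardly move, and counts from other cell types were not addressed.

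In lateral plate mesoderm-like cells, Acta2 alone was called. It measured 194, 279.8, 345 and 235 CPM in Tet-TKO and 512 and 675 CPM in WT host libraries. It fell by 1.21 on the log2 scale (SE 0.20, adjusted p = 0.0093), where 0.508% of all genes were called lower. Its adjusted p was 0.0964 without WT host library 1, 0.254 without WT host library 2 and 0.0121 without Tet-TKO library 1. The log2 fold change was -1.28 with Tet-TKO libraries 1 and 2 alone and -1.15 with libraries 3 and 4 alone. Tagln measured 81.0, 115, 183 and 112 CPM in Tet-TKO and 220.3 and 340.5 CPM in WT host libraries, which kept the genotypes apart (-1.23, SE 0.25, adjusted p = 0.0315). Lum lay in the other direction, at 113, 228, 168 and 133 CPM in Tet-TKO and 14.0 and 48.9 CPM in WT host libraries. Every Tet-TKO library was above both WT host libraries, with a log2 fold change of 2.34 (SE 0.42, adjusted p = 0.0177) that ran from 1.71 to 3.44 on leaving out 1 library, and DESeq2 called it at an adjusted p of 0.00797. Lum was also the member with the clearest tendency over all kept cells of a library. It measured 20.7, 41.0, 34.96 and 32.0 CPM in Tet-TKO and 7.61 and 17.1 CPM in WT host libraries (1.29, SE 0.39, adjusted p = 0.0876). Mesenchyme-like cells held 66.4 to 75.8% of the Lum UMIs of each library. They held 5.41 to 7.52% of all UMIs in Tet-TKO and 2.72 and 3.19% in WT host libraries. Within that class the log2 fold change of Lum was 0.28, and the part of the class size was not tested. Over all kept cells, where fewer cells of a type and less RNA per cell cannot be told apart, edgeR called 0 of the 8 members, with 2.05% of all genes lower and 0.584% higher. At an unadjusted p under 0.05 there was 1, Lum, and DESeq2 called 1. The shares of all genes beside these counts are not given here.

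Somitic and caudal mesoderm-like cells had little Tagln in either genotype. It measured 2.90, 2.64, 3.75 and 3.53 CPM in Tet-TKO and 28.5 and 27.6 CPM in the WT host. It fell by 3.13 on the log2 scale (SE 0.20, adjusted p = 0.000887), and was at -3.25 with Tet-TKO libraries 1 and 2 alone and -2.98 with libraries 3 and 4 alone. Other members also lay below the WT host in every Tet-TKO library of this class without being called. The share of all genes in that order was not counted here. It was 11.0% in cardiomyocyte-like, 13.3% in mesenchyme-like and 15.8% in allantois-like cells. Tdo2 was at most 1.39 CPM in Tet-TKO and 3.65 and 9.33 CPM in the WT host (-3.22, adjusted p = 0.138), Myl9 3.93 to 6.78 CPM and 13.9 and 11.6 CPM (-1.27, 0.0873), and Acta2 37.2 to 69.6 CPM and 83.9 and 79.1 CPM (-0.68, 0.405). Cnn1 was at most 2.14 CPM and 2.22 and 3.32 CPM (-0.80, 0.741). In this class 0.132% of all genes were called lower. The call was lost when cells or clusters were chosen otherwise. The log2 fold change was -1.40 (adjusted p = 0.339) with predicted doublets removed, -1.30 (0.373) at resolution 1 and -1.23 (0.461) when all variable genes were used.

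**Figure D3:**
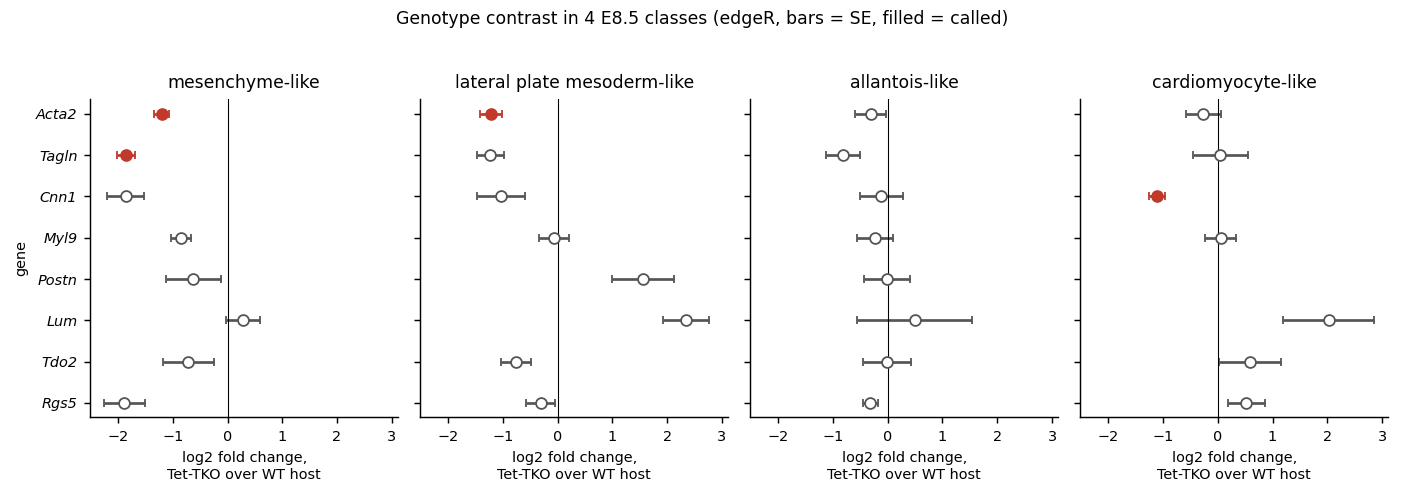
Log2 fold change of each member, Tet-TKO relative to WT host, in mesenchyme-like, lateral plate mesoderm-like, allantois-like and cardiomyocyte-like cells at E8.5, with the standard error as a bar and filled points for called members. Filled points are Acta2 and Tagln in mesenchyme-like, Acta2 in lateral plate mesoderm-like and Cnn1 in cardiomyocyte-like cells.

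In cardiomyocyte-like cells, where Acta2, Cnn1 and Myl9 had their highest mean levels, Cnn1 alone was called. It measured 62.8, 68.2, 83.5 and 92.1 CPM in Tet-TKO and 152 and 168 CPM in WT host libraries, with no overlap. It fell by 1.10 on the log2 scale (SE 0.14, adjusted p = 0.00465), against 0.551% of all genes called lower. Among the 7 members tested it was the 1 whose Tet-TKO values all lay under the WT host values, as did 11.0% of all genes. The class held 180, 170, 113 and 41 Tet-TKO cells and 218 and 184 WT host cells, and Postn did not pass the filter on low counts in it. The adjusted p of Cnn1 was 0.0659 without WT host library 1, 0.114 without WT host library 2, 0.0106 without Tet-TKO library 1 and 0.0129 without Tet-TKO library 3. It was 0.0199 with the Tet-TKO libraries summed into the pairs named above and 1.7e-09 with libraries 3 and 4 left out, where the log2 fold change was -1.26. With libraries 1 and 2 left out the log2 fold change was -0.98 (adjusted p = 4.11e-05), short of the minimum. The Tet-TKO spread in the fits of 1 pair is again that between close libraries.

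The other contractile genes split the Tet-TKO libraries into the same pairs as sequencing depth. Acta2 measured 1608 and 2081 CPM in Tet-TKO libraries 1 and 2, 4298 and 4152 CPM in libraries 3 and 4, and 3461 and 3509.6 CPM in the WT host. Tagln measured 318 and 388 CPM in libraries 1 and 2, 1259.9 and 1347 CPM in libraries 3 and 4, and 675 and 844 CPM in the WT host. Myl9 measured 318 and 349, 674 and 706, and 439.8 and 504 CPM in the same order. For all 3 genes the WT host thus lay between the pairs of Tet-TKO libraries, and the fits over all libraries gave log2 fold changes of -0.27, 0.05 and 0.06 (adjusted p at least 0.775). Each pair of Tet-TKO libraries was also fitted alone against both WT host libraries, an alternative added after the split was seen, so that these values are descriptions. With libraries 1 and 2 the log2 fold changes were -1.08 for Tagln, -0.89 for Acta2 and -0.47 for Myl9, and with libraries 3 and 4 they were 0.67, 0.17 and 0.44. Rgs5 had the opposite split, with 189 and 209 CPM in libraries 1 and 2, 100.4 and 116 CPM in libraries 3 and 4, and 123 and 86.5 CPM in the WT host (0.52 over all libraries).

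Cluster makeup and cardiomyocyte markers moved with this split. Cluster 33, led by Ttn, Actc1 and Myh7, held 45.0 and 42.4% of the class in Tet-TKO libraries 1 and 2, 69.9 and 61.0% in libraries 3 and 4, and 59.6 and 54.9% in the WT host. The rest was cluster 36, led by Sfrp5, Csrp3 and Tbx5. The 8 cardiomyocyte markers, all detected in each library, summed to 11227 and 11357 CPM in Tet-TKO libraries 1 and 2, 18371 and 16094 CPM in libraries 3 and 4, and 18907 and 19236 CPM in the WT host. Erythroid markers summed to 7.14 to 55.7 CPM in Tet-TKO and 2292 and 6177 CPM in the WT host. The part of these in the Tagln, Acta2 and Myl9 values was not tested. Cnn1 kept its call within cluster 33 alone, at 130, 114, 106 and 118 CPM in Tet-TKO and 221 and 242 CPM in WT host libraries (-1.03, SE 0.16, adjusted p = 0.00543), where 0.726% of all genes were called lower. In cluster 36 it measured 17.8 to 42.3 CPM in Tet-TKO and 44.9 and 66.3 CPM in WT host libraries (-0.83, SE 0.29, adjusted p = 0.352). Acta2 also kept the genotypes apart in cluster 36, at 364 to 848 CPM against 972 and 986 CPM (-0.61, SE 0.24, adjusted p = 0.402). Acta2 overlapped between genotypes in cluster 33, as did Tagln and Myl9 in both clusters. The share of all genes without overlap was not counted in the clusters.

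**Figure D4:**
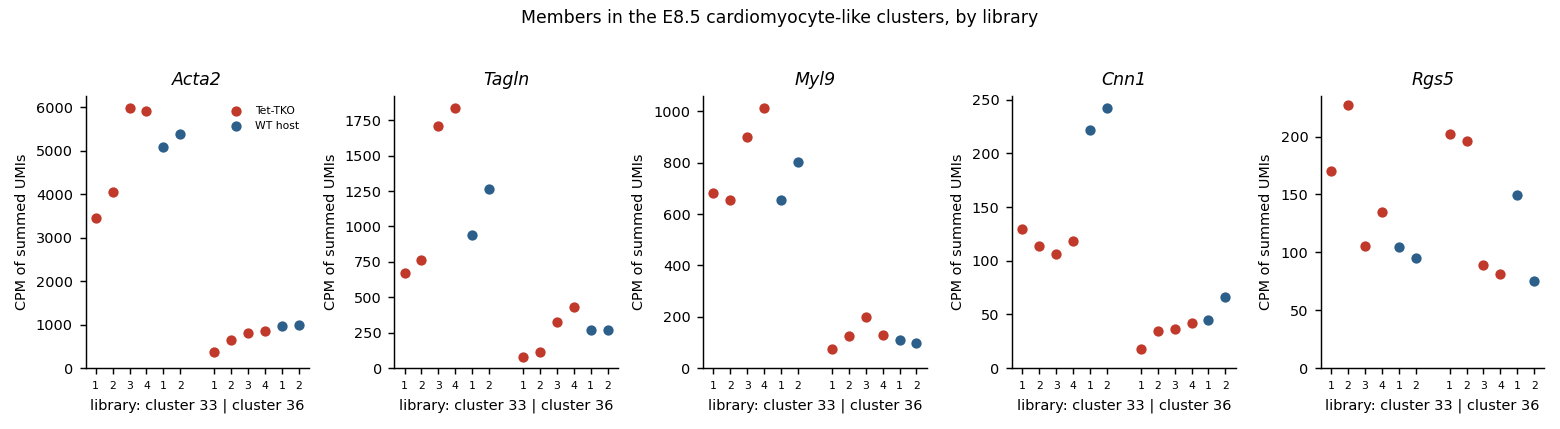
CPM of Acta2, Tagln, Myl9, Cnn1 and Rgs5 by library in the cardiomyocyte-like clusters 33 and 36 at E8.5, with Tet-TKO libraries 1 to 4 and both WT host libraries as separate points. Tet-TKO libraries 3 and 4 lie above libraries 1 and 2 for Tagln in both clusters, and Cnn1 is below the WT host in every Tet-TKO library of both clusters.

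Allantois-like cells, with the highest mean Rgs5 of both genotypes, showed no called member. edgeR called 0 of 8 where 0.479% of all genes were lower and 0.256% higher, and DESeq2 called 0. At an unadjusted p under 0.05, 2 of the 8 were lower and 0 higher, against 1695 of all 12515 genes in either direction. The class held 1008, 1493, 151 and 66 Tet-TKO cells and 596 and 375 WT host cells. Rgs5 measured 180.2, 190.2, 190.0 and 161 CPM in Tet-TKO and 233 and 214 CPM in WT host libraries, a log2 fold change of -0.31 (SE 0.13, adjusted p = 0.336). Tagln measured 27.2, 65.8, 55.0 and 39.2 CPM in Tet-TKO and 68.5 and 96.3 CPM in WT host libraries (-0.81, SE 0.31, adjusted p = 0.285). For these 2 members the Tet-TKO values all lay under those of the WT host, as for 15.8% of all genes. Acta2 overlapped between genotypes, at 181, 359, 249 and 193 CPM against 252 and 359 CPM (-0.31, SE 0.28, from -0.59 to -0.054 on leaving out 1 library). The remaining 5 members had log2 fold changes from -0.23 (Myl9) to 0.49 (Lum), and Postn, Lum, Tdo2 and Cnn1 stayed under 8 CPM in every library of this class.

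The change of fold change between classes was tested within libraries, by the interaction of class and genotype at an adjusted p of 0.05. For Rgs5, the log2 fold change was 1.64 higher in allantois-like than in mesenchyme-like cells (SE 0.28, adjusted p = 0.00257) and 2.41 higher in cardiomyocyte-like than in mesenchyme-like cells (SE 0.30, adjusted p = 0.000111). Cnn1 differed by 1.78 between allantois-like and mesenchyme-like cells (SE 0.45, adjusted p = 0.0403), and Tdo2 by 1.43 between cardiomyocyte-like and mesenchyme-like cells (SE 0.34, adjusted p = 0.0302). Of all genes, 2.32% and 2.42% passed these comparisons. DESeq2 passed 2 members in the first and 1 in the second, where Tdo2 had an adjusted p of 0.0642, against 1.76% and 2.26% of all genes. Tagln came close between cardiomyocyte-like and mesenchyme-like cells (1.77, SE 0.47, adjusted p = 0.0533), and for Acta2 neither difference passed (0.90 and 0.91, adjusted p 0.198 and 0.207). No member passed between cardiomyocyte-like and allantois-like cells, where 0.739% of all genes did. There, 1 was lower and 1 higher at an unadjusted p under 0.05, and 0 passed the threshold by DESeq2. The shares of all genes beside the latter counts are not given here. The allantois-like against mesenchyme-like difference of Rgs5 had an adjusted p of 0.173 without WT host library 1 and 0.0697 without library 2. That of Cnn1 had 0.324 and 0.474, and 0.0795 and 0.0516 without Tet-TKO libraries 2 and 3. The cardiomyocyte-like against mesenchyme-like difference of Tdo2 had 0.348 and 0.274 without the WT host libraries and 0.0773 without Tet-TKO library 2. For Rgs5 in that comparison the adjusted p was at most 0.0137 on leaving out any 1 library. Over all alternatives these differences ran from 0.80 to 1.99 for Rgs5 and 1.47 to 2.08 for Cnn1 between allantois-like and mesenchyme-like cells. Between cardiomyocyte-like and mesenchyme-like cells they ran from 2.02 to 2.63 for Rgs5 and 0.87 to 2.0002 for Tdo2. Cnn1 rested on 7 to 34 UMIs per Tet-TKO library and 28 and 45 in the WT host in mesenchyme-like cells. In cardiomyocyte-like cells Tdo2 rested on 8 to 34 UMIs per Tet-TKO library and 17 and 12 in the WT host. In mesenchyme-like cells its log2 fold change was -1.98 in cluster 11 and 0.33 in cluster 15, which the genotypes filled differently.

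The share of cells with at least 1 UMI was compared after each cell was thinned to 5000 UMIs, so that depth was equal. Cells under 5000 UMIs, 76 to 724 of the kept cells per E8.5 library, were left out. In mesenchyme-like cells, Tagln was detected in 48.7, 61.2, 52.7 and 44.2% of cells in the Tet-TKO libraries and 82.2 and 92.9% in the WT host. Rgs5 was detected in 27.0, 17.2, 16.0 and 9.62% and in 49.3 and 34.98%. Acta2, the more abundant transcript, was detected in 76.9 to 93.9% of Tet-TKO and 90.0 to 96.5% of WT host cells. In cardiomyocyte-like cells Cnn1 was detected in 18.9, 25.2, 37.6 and 21.1% of Tet-TKO and 45.4 and 43.5% of WT host cells. Neural classes, which should lack these genes, gave at most 3.41% for Acta2, 1.22% for Tagln, 0.897% for Rgs5 and 0.456% for Cnn1 at the same depth. Without thinning, the mean share of Tagln-positive mesenchyme-like cells was 80.4% in Tet-TKO and 93.2% in WT host libraries.

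At E7.5, with 1 library per genotype and no test, Acta2 and Tagln were further below the WT host than the other members in mesenchyme-like cells (561 Tet-TKO and 382 WT host cells). Intervals are exact 95% Poisson intervals and cover counting error only. Acta2 was 88.0 CPM (83.1 to 93.1) in Tet-TKO and 261 CPM (247 to 274) in WT host cells. Tagln was 83.0 CPM (78.2 to 88.0) and 323 CPM (308 to 338). Myl9 was 55.8 CPM (51.9 to 59.9) and 79.5 CPM (72.2 to 87.4), and Cnn1 was 7.34 CPM (5.97 to 8.92) and 10.1 CPM (7.61 to 13.1), with overlapping intervals. All 4 contractile genes thus measured less in the Tet-TKO library, and so did Tdo2 and Rgs5, given below. The share of all genes that did so was not counted. The genotypes filled this class differently: cluster 25, with Acta2 and Tagln among its leading genes, held 15.2% of it in Tet-TKO and 21.2% in the WT host, and cluster 3 held the rest. Within cluster 25, Acta2 was 307 CPM (284 to 332) in Tet-TKO and 553 CPM (511 to 597) in the WT host, and Tagln 232 CPM (212 to 254) and 582 CPM (539 to 627). Within cluster 3, Acta2 was 48.3 CPM (44.4 to 52.5) and 181 CPM (168 to 194), and Tagln 56.0 CPM (51.8 to 60.5) and 252 CPM (237 to 267). Tdo2 was 77.0 CPM (72.4 to 81.8) and 134.6 CPM (125 to 145), and Rgs5 was 37.9 CPM (34.7 to 41.3) and 52.5 CPM (46.6 to 59.0). Postn and Lum were barely present at this stage, at no more than 2.02 CPM in either library. In allantois-like cells (124 and 140 cells), Tagln was 10.9 CPM (7.55 to 15.2) and 52.3 CPM (43.1 to 62.9), and Acta2 21.8 CPM (16.9 to 27.7) and 48.1 CPM (39.3 to 58.3). The intervals of Rgs5 overlapped there, at 36.9 CPM (30.5 to 44.3) and 35.02 CPM (27.5 to 43.9). No cardiomyocyte-like class was found at E7.5.

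**Figure D5:**
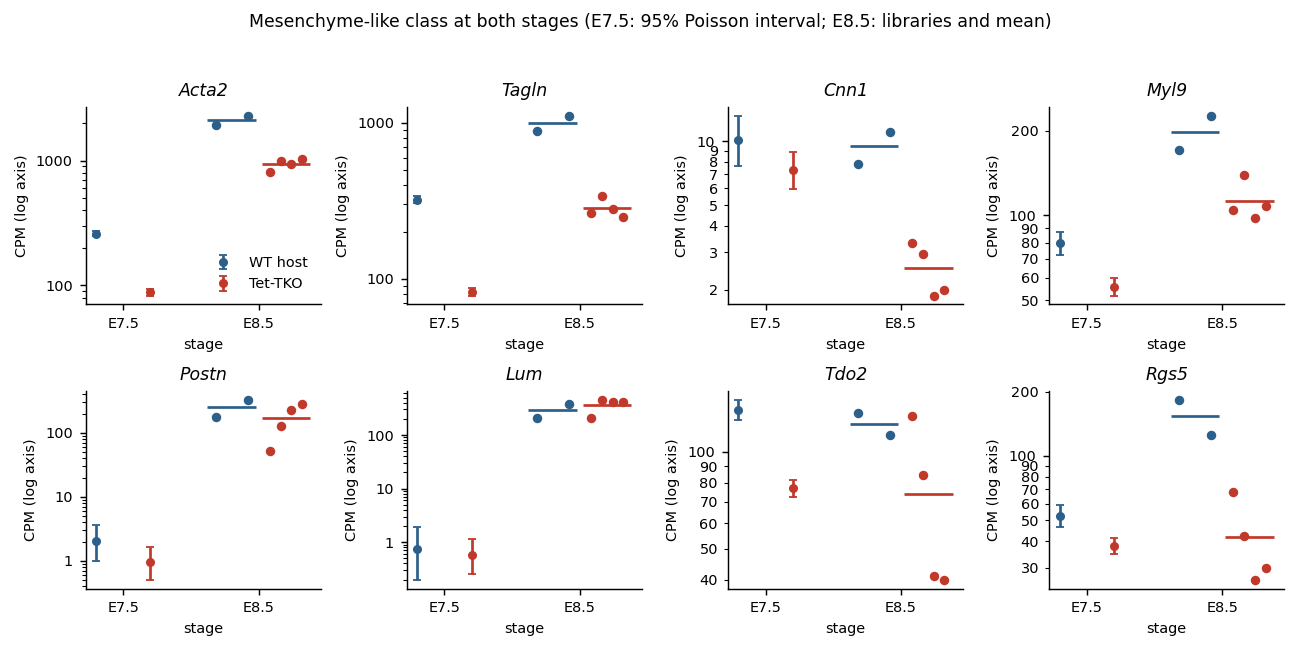
CPM of the 8 members in mesenchyme-like cells at E7.5 (1 library per genotype, bars are 95% Poisson intervals) and E8.5 (4 Tet-TKO and 2 WT host libraries, 1 point each, bar for the mean), on a log axis. Postn and Lum are at or under 2.02 CPM at E7.5 and at 51.8 CPM or more in every E8.5 library.

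Few genes of the lists of related genes were called. Of all genes tested in mesenchyme-like cells, 0.844% were called lower and 0.148% higher. In mesenchyme-like cells, edgeR called 0 of the 18 tested genes among 22 of the smooth muscle contractile and actin cytoskeleton list, whose median log2 fold change was -0.41, against 0.01 for all 11499 genes. At an unadjusted p under 0.05 there were 12 of the 18, against 15.2% of all genes, and DESeq2 called 2. It also called 0 of 10 genes of SRF, myocardin and YAP regulators and targets (median 0.01) and 0 of 9 genes of TGF-beta and PDGF signalling and pericytes (median 0.28). At an unadjusted p under 0.05 these lists had 0 and 1 genes, and DESeq2 called 0 in both. Of the matricellular and elastic matrix list, 1 of 11 was called, the basement membrane and elastic fibre gene Fbln2, which measured 4.47 to 7.58 CPM in Tet-TKO and 23.8 and 24.7 CPM in WT host libraries (-2.02, adjusted p = 0.00355). Of the RGS family, 1 of 6 was called, Rgs4, at 0 to 0.389 CPM in Tet-TKO and 9.79 and 9.88 CPM in WT host libraries (-5.43, adjusted p = 0.00208, a fitted value that depends on very low counts). No member of the small leucine-rich proteoglycan list (2 tested) or the tryptophan list (1 tested) was called.

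The lists gave single genes in the other classes. In allantois-like cells, Actg2, the gamma smooth muscle actin gene, measured 0.505 to 0.991 CPM in Tet-TKO and 8.20 and 5.67 CPM in WT host libraries (-3.16, adjusted p = 0.00217). It was the 1 of 20 contractile list genes called there, against 0.479% of all genes called lower, and the list had a median log2 fold change of 0.08, against 0.01 for all genes. Actg2 lay in the same direction, without a call, in the other classes. The log2 fold change was -1.74 in mesenchyme-like (edgeR adjusted p = 0.0124) and -1.02 in cardiomyocyte-like cells (0.0416). Rgs10, a paralogue of Rgs5, was called higher in allantois-like cells, at 47.7 to 69.8 CPM in Tet-TKO and 14.1 and 12.4 CPM in WT host libraries (2.20, adjusted p = 0.0012). It was also called higher in cardiomyocyte-like cells, at 213 to 265 and 51.5 and 58.0 CPM (2.10, adjusted p = 0.000141), the opposite direction to Rgs4 in mesenchyme-like cells. Both genes kept their direction, without a call, in the remaining classes. Rgs10 was at 1.06 in mesenchyme-like cells (adjusted p = 0.0982). Rgs4 was at -1.07 in allantois-like (0.441) and -1.66 in cardiomyocyte-like cells (0.0115). Of all genes tested, 32 of 12515 were called higher in allantois-like and 21 of 10715 in cardiomyocyte-like cells.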

How the data were processed

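Counts of UMIs per gene and cell barcode were made by the authors with Cell Ranger from 10x Genomics libraries mapped to mm10 with an added tdTomato sequence, and were deposited as filtered count matrices of 8 libraries. The deposited file headers name Cell Ranger 3.1.0, while the study's methods name a later version. Reads were collapsed by UMI, and counts on the 3′ end do not separate transcripts of a gene.

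Following the study's methods, cells under 1500 UMIs were dropped, as were those above 30% mitochondrial or 35% ribosomal counts. Depth was 65601218 to 136982886 UMIs per library, and at most 0.404% of the smaller library's barcodes were shared by a pair of libraries. Cells were clustered per stage with scanpy 1.11.5 (2500 variable genes without the listed genes, 50 principal components, correction between libraries by mutual nearest neighbours, Leiden resolution 2). A cluster took a class name from at least 3 raised markers, and predicted doublets were removed only in an alternative. Counts were summed per class and library (at least 10 cells) and tested over all genes with edgeR 4.0.16 (TMM, filterByExpr, quasi-likelihood test, two-sided, Benjamini-Hochberg adjusted p). DESeq2 1.42.0 was an alternative. Levels are CPM (summed counts scaled to the class total), and intervals cover counting error only. Tested on simulated data with genes changed by 1.5 on the log2 scale, the procedure recovered 96.5% in the mesenchyme-like class (11214 genes, 4 false calls). It recovered 96.0% in the allantois-like class (12221 genes, 1 false call) and 88.5% in the cardiomyocyte-like class (10435 genes, 2 false calls). The changed genes were drawn from those above the median level, so scarce genes are not covered. The simulated libraries did not copy the likeness of pairs of Tet-TKO libraries. The members, gene lists and markers were chosen with earlier results of these data known. All 8 members are described, and of each other list the called genes, at most 3 of largest change per class. Libraries were grouped by their labels, all 8 were used, and no comparison was made at E7.5 beyond the values. Alternatives covered normalization, filters, doublets, ambient counts, clustering, pairing by library number and leaving out each library.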

Additional observations from a re-analysis of the deposited data

Results flagged for a closer look

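In the E8.5 Tet-TKO libraries, 2 of 32 groups of 4 values held a library far from the other 3, at a limit that chance passes in about 1 of 20 groups. Lum in mesenchyme-like cells was 205.7 CPM in library 1, against 409 to 450.2 CPM in the other libraries. Tdo2 in allantois-like cells was 0.5945 CPM in library 4, against 1.44 to 1.52 CPM, a level of a few UMIs.

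In 4 comparisons between classes the genotype effect differed, tested by the interaction of class and genotype. For Rgs5 the log2 fold change was 1.638 higher in allantois-like than in mesenchyme-like cells and 2.405 higher in cardiomyocyte-like than in mesenchyme-like cells. For Cnn1 it was 1.779 higher in allantois-like than in mesenchyme-like cells, and for Tdo2 it was 1.434 higher in cardiomyocyte-like than in mesenchyme-like cells. What lies behind these differences was not tested. That of Cnn1 rests on few UMIs in mesenchyme-like cells, and that of Tdo2 on few UMIs in cardiomyocyte-like cells.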

How the results depend on the processing

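The limits are the 2 WT host libraries, the depth split among the Tet-TKO libraries and the rebuilt cell classes. Of 708 recomputed single values, 564 kept direction and side of the threshold, 41 lost a call, 55 gained one and 48 changed sign. The cause of each change was not tested. Shares of all genes called are given above for DESeq2 over all pairs of gene and class, and not for most other alternatives. A count of members or listed genes that rises under an alternative is thus not a result about these genes alone.

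Pairs of member and class called lower, 5 in the report, came to 8 with DESeq2, 19 with no filter on low counts, 3 when the Tet-TKO libraries were summed into pairs (1 with 2, 3 with 4), 10 without correction between libraries, 12 with libraries 1 and 2 only, 21 with Tet-TKO libraries 3 and 4 only, 9 at an adjusted p of 0.05 and 0 to 7 on leaving out 1 library. Pairs called higher, 0 in the report, came to 4, 12, 1, 1, 4, 3, 4 and 1 to 2 in that order, and to 2 with ambient counts subtracted, 1 at 3000 UMIs per cell and 1 with all variable genes. In all kept cells DESeq2 called 1 member. The interaction gave 4 results, 7 at resolution 1, 15 with no filter and 1 to 5 on leaving out 1 library. Listed genes called lower, 3 in the report, came to 5 with DESeq2, 10 with no filter, 9 with libraries 1 and 2 only, 12 with Tet-TKO libraries 3 and 4 only, 5 at resolution 1, 7 without correction and 0 to 4 on leaving out 1 library, and those called higher, 2 in the report, to 5, 10 and, with ambient counts subtracted, 5, to 14 without correction, to 19 with Tet-TKO libraries 3 and 4 only and to 0 to 2 on leaving out 1 library.

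The study speaks of matching host samples without naming the pairs, and library numbers were not shown to pair the samples: with 2 pairs, deviations of same-numbered libraries correlated at 0.312 in all kept cells, 0.211 in mesenchyme-like, 0.234 in allantois-like and 0.00479 in cardiomyocyte-like cells. With the replicate block, 21 pairs were called lower and 9 higher, 2 members were called in all kept cells, and 13 listed genes were called lower and 5 higher. The shares of all genes called under the block are not given here, so these counts cannot be set against them. Under the block, Cnn1 (0.17) and Tdo2 (0.18) in allantois-like and Myl9 (-0.47) and Tagln (-1.07) in cardiomyocyte-like cells changed sign, as they did with libraries 1 and 2 only (0.24, 0.16, -0.47 and -1.08).

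Other sign changes were of uncalled values. With Tet-TKO libraries 3 and 4 only, Postn in allantois-like cells was at 0.099 and Acta2, Rgs5 and Tdo2 in cardiomyocyte-like cells at 0.17, -0.089 and -0.27. In allantois-like cells Lum was at -0.20 at resolution 1, Postn at 0.012 with no filter, 0.00044 with libraries summed and 0.10 with ambient counts subtracted, and Tdo2 at 0.016 with no filter, 0.42 without correction, 0.036 with all variable genes and 0.0017 in cluster 0. In cardiomyocyte-like cells Myl9 was at -0.084 and Tagln at -0.060 with doublets removed, -0.036 and -0.057 at resolution 1 and -0.021 and -0.012 without correction, and Tagln at -0.26 in cluster 36. In mesenchyme-like cells Lum was at -0.35 at resolution 1, -0.22 without correction and -0.66 in cluster 11, Postn at 0.46 in cluster 11 and Tdo2 at 0.33 in cluster 15. On leaving out 1 library, the allantois-like range was -0.50 to 0.063 for Cnn1, -0.27 to 1.32 for Lum, -0.61 to 0.23 for Myl9, -0.28 to 0.26 for Postn and -0.10 to 0.14 for Tdo2, the cardiomyocyte-like range -0.12 to 0.21 for Myl9 and -0.27 to 0.31 for Tagln, and the mesenchyme-like range of Lum -0.076 to 0.76.

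Levels in mesenchyme-like cells moved with the clusters: at resolution 1, Acta2 was 377 CPM in Tet-TKO and 1779 CPM in WT host and Tagln 141 CPM in Tet-TKO libraries, and without correction Tagln was 390.4 CPM. The mean Tet-TKO share of cells with a UMI was 78.2% for Acta2 and 41.1% for Tagln at 3000 UMIs, and 80.4% for Tagln unthinned.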

Other observations

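Members were also measured in blood and vessel classes that the comparisons above do not turn on. In erythroid-like cells, only Tet-TKO libraries 2 and 3 held at least 10 cells (32 and 14), against 818 and 1791 in the WT host. Acta2 measured 112 and 40.9 CPM in these Tet-TKO libraries and 7.73 and 9.56 CPM in the WT host, a log2 fold change of 2.75 (edgeR adjusted p = 0.011). Tagln measured 14.5 and 16.3 CPM against 3.46 and 3.03 CPM (1.95, adjusted p = 0.0188), and Rgs5 37.8 and 23.4 CPM against 7.36 and 3.298 CPM (2.25, adjusted p = 0.0377). None of these passed 0.01. Over all pairs of gene and class DESeq2 called 0.504% higher, and the share in this class alone is not given here. DESeq2 called all 3 members here (adjusted p 4.5e-05, 0.000271 and 0.00271). The values rest on few cells and on the clustering: with all variable genes the log2 fold changes were 0.97 for Acta2, 0.13 for Tagln and 1.34 for Rgs5 (adjusted p 0.382, 0.919 and 0.135), and at resolution 1 they were 1.94, 0.69 and 1.75 (0.108, 0.436 and 0.136).

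In endothelium-like cells Tdo2 measured 37.0, 17.2, 106 and 5.92 CPM in Tet-TKO and 4.84 and 12.8 CPM in WT host libraries (2.38, adjusted p = 0.202). Tet-TKO libraries 1 to 3 were above the WT host and library 4, with 16 cells, was not. The class joins cluster 14 with the small cluster 54, whose first leading gene is Tdo2 and which held 22, 16, 4 and 0 Tet-TKO cells and 3 and 4 WT host cells. Cluster 54 gave 99 of 137, 37 of 62 and 169 of 179 Tdo2 UMIs in Tet-TKO libraries 1 to 3, and 13 of 15 and 20 of 26 in the WT host libraries. Within it Tdo2 overlapped between genotypes, at 160, 137 and 724 CPM in Tet-TKO and 156 and 268 CPM in the WT host. In cluster 14 alone Tdo2 measured 12.3, 7.49, 6.86 and 5.92 CPM in Tet-TKO and 0.663 and 3.06 CPM in WT host libraries, the latter from 2 and 6 UMIs. In forebrain-like cells, where Tagln is at or near background, its log2 fold change was -2.52 (adjusted p = 0.0335).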
